A study of Mus musculus with 6 samples.

Results

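The 9 genes of thymocyte migration and homing described here are Ccr9, Cxcr4, Ccr7, S1pr1, Klf2, Itga4, Itgb7, Plxnd1 and Plxnb2. They were taken by symbol from the table of read counts, which gave 9 rows of 34573 genes, and 8 of the 9 passed the filter on low counts that left 13729 genes for testing. The RNA came from sorted double negative 3 (DN3) cells of mouse thymus, the CD4-CD8-CD44-CD25+ stage at which the T cell receptor beta chain is rearranged and tested. Thymi were from adult mice of 6 to 8 weeks on mixed C57BL/6 and 129 stock, and cells were lysed in Trizol without culture. The L1 KO group (3 libraries) carried Cre and 2 floxed copies of Rpl22l1, which encodes a ribosomal protein closely related to Rpl22, and the WT group (3 libraries) carried the same floxed copies without Cre. By the series design text the driver is Vav-Cre, which is active in blood-forming cells and not confined to the DN3 stage. The presence of Cre and the loss of Rpl22l1 cannot be told apart. The design text of the series attaches Cre to the groups in the opposite order, and the sample labels were followed.

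T cell precursors move through the thymus along a set route. Progenitors enter from blood vessels, travel outward through the cortex to the capsule as double negative cells, turn back inward as CD4 and CD8 double positive cells, and leave from the medulla as mature cells. Chemokine receptors read the position along this route, integrins provide grip on stroma, plexins receive semaphorin guidance cues, and the transcription factor KLF2 switches on the exit receptor S1PR1 in mature cells. As the samples are bulk RNA, fewer cells that express a gene and less of its RNA per cell cannot be told apart.

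Of the 8 tested genes, Ccr9 and Plxnb2 fell in L1 KO cells, Klf2 rose, and Cxcr4, Ccr7, Itga4, Itgb7 and Plxnd1 did not pass the threshold of 0.05 on the adjusted p. Thus 3 of 8 were called, 1 higher and 2 lower, where the same test called 4.57% of all 13729 tested genes, 2.14% as higher and 2.43% as lower (628 genes, 294 higher and 334 lower). At an unadjusted p under 0.05 the share of all tested genes was 23.4%. Levels are CPM, the reads of a gene scaled to a common library total with TMM factors, changes are log2 fold changes of L1 KO over WT with the standard error (SE), and each p comes from the quasi-likelihood test of edgeR, adjusted by Benjamini-Hochberg over all tested genes. The median log2 fold change was −0.0036 over the 8 genes and −0.0066 over all tested genes. The genes were chosen with earlier results of these libraries known, so the share that was called is a description of this set.

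The windows before the start sites of the 3 genes that changed are shown because these are the members whose RNA level moved. RefSeq on GRCm38 holds promoter entries for 7 of the 9 genes, and the 250 bases before each start are printed 5′ to 3′ on the gene's strand. Capitals mark matches, on either strand, to the E-box forms CAGCTG and CACCTG, to TGTGGT (RUNX), to CCACCC (KLF) or to GTAAACA (FOXO). The Ccr9 window is chr9:123766961-123767210 on the plus strand, the Klf2 window chr8:72318812-72319061 on the plus strand, and the Plxnb2 windows chr15:89180789-89181038 and chr15:89173952-89174201, both on the minus strand.
Ccr9: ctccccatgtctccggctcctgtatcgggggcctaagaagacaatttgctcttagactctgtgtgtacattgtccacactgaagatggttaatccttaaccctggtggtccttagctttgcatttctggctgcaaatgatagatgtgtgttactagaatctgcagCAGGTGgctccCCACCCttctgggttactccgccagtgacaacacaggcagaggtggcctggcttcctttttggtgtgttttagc
Plxnb2, outer start: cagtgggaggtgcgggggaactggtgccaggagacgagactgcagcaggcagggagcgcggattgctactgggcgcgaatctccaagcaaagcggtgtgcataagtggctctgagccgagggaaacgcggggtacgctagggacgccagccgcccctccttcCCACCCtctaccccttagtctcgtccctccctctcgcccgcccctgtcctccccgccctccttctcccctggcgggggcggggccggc
Plxnb2, inner start: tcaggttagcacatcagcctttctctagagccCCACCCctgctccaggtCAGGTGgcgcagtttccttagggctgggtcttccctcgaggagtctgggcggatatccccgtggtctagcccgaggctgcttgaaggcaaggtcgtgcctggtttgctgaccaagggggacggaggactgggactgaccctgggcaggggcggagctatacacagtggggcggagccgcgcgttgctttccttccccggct
Klf2: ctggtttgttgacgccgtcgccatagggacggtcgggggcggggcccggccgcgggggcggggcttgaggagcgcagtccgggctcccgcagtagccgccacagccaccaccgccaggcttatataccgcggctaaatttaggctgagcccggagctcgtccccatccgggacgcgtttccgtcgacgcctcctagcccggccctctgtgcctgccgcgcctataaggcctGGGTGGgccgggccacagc
The Ccr9 window held 1 match to CACCTG, on the opposite strand 85 bases before the start, and 1 to CCACCC 74 bases before it. The outer Plxnb2 window held 1 CCACCC match, and the inner one held 1 match each to CACCTG and CCACCC. The Klf2 window held 1 CCACCC match, on the opposite strand 19 bases before the start. None of these 4 windows matched the other E-box form or the RUNX or FOXO letters. Windows of members that did not pass were searched in the same way and are not printed. The Itgb7 window held 3 matches to the KLF letters and the Itga4 window held 1, while the Cxcr4 and Plxnd1 windows held 0. The Itga4 window also held 1 match each to the other E-box form and the RUNX letters. The KLF letters were thus not particular to the genes that changed. All starts here are those of RefSeq. In GENCODE, Klf2 starts at chr8:72319033, inside its window, so the match lies within the gene span given there. The Ccr9 window and the inner Plxnb2 window also lie within the GENCODE spans of their genes. Over 32851 windows of the same length, 17.2% held CACCTG and 28.1% held CCACCC, and the general E-box CANNTG, which includes both E-box forms and is not capitalised, was in 66.2%. A match describes letters only.

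The targeted gene was lower in every L1 KO library. Rpl22l1 was at 18.6, 19.996 and 26.1 CPM in L1 KO libraries 1 to 3, against 86.3, 123.2 and 118 CPM in WT libraries 1 to 3, so that each library matched its sample label. Reads counted to genes ranged from 13887672 to 28128186 in L1 KO libraries and from 19570475 to 21571810 in WT libraries, and L1 KO 3 was the shallowest. All 12 listed DN3 markers were tested and 0 passed in edgeR, where 7 had an unadjusted p under 0.05. DESeq2 called 1, limma-voom 0, and the fit with the library number as a block 2 as higher and 3 as lower. Their summed level was 9288 to 9730 CPM in L1 KO libraries and 9384 to 10193 CPM in WT libraries. Of the 12, 5 had a positive fold change: Il2ra, which encodes CD25 and averaged 1926 CPM in L1 KO and 1560 CPM in WT, and also Ptcra, Notch1, Hes1 and Dtx1. Dtx1, a Notch target, had the largest log2 fold change of the 12 in size, 0.82 ± 0.30 (adjusted p = 0.192). It averaged 308 ± 76.0 CPM in L1 KO and 175 ± 59.4 CPM in WT. Rag1, of receptor gene rearrangement, averaged 759 CPM in L1 KO and 974 CPM in WT (adjusted p = 0.198). The 4 genes that the gate excludes, Cd4, Cd8a, Cd8b1 and Cd44, summed to 6.11 to 11.05 CPM in L1 KO libraries and 6.44 to 8.14 CPM in WT libraries. Among them Cd44 had 40, 107 and 62 reads in the L1 KO libraries and 25, 39 and 30 reads in the WT libraries. These groups overlapped, and the log2 fold change of 1.10 ± 0.40 had an adjusted p of 0.141, and one of 0.0116 with the block. The number 1 library differed from the other two in both groups in a shared way: across 13729 genes, which are no replicates, their departures from the mean of their group had a correlation of 0.58. With both left out, the count of called members was again 3, 1 higher and 2 lower.

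Ccr9, the receptor for the chemokine CCL25 made by thymic epithelium, fell in L1 KO cells. In GENCODE on GRCm38 it spans chr9:123678439-123784330, plus strand (ENSMUSG00000029530). Its level was 34.2, 30.7 and 24.9 CPM in the L1 KO libraries, against 130, 122 and 94.9 CPM in the WT libraries. The highest L1 KO library was far below the lowest WT library, and the number 3 library was the lowest of each group. Mean levels were 29.9 ± 4.7 CPM in L1 KO and 116 ± 18.6 CPM in WT (SD, n = 3 each), so that 25.8% of the WT mean was left. This is a log2 fold change of −1.95 ± 0.15 (SE), with a 95% interval from −2.29 to −1.60 and an adjusted p of 0.000695. Taken by library number, the log2 differences were −1.93, −1.99 and −1.93. In GENCODE, exons of 3 other genes overlap those of Ccr9, by 22 to 1932 bases, and reads there may not all belong to Ccr9.

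**Figure D1:**
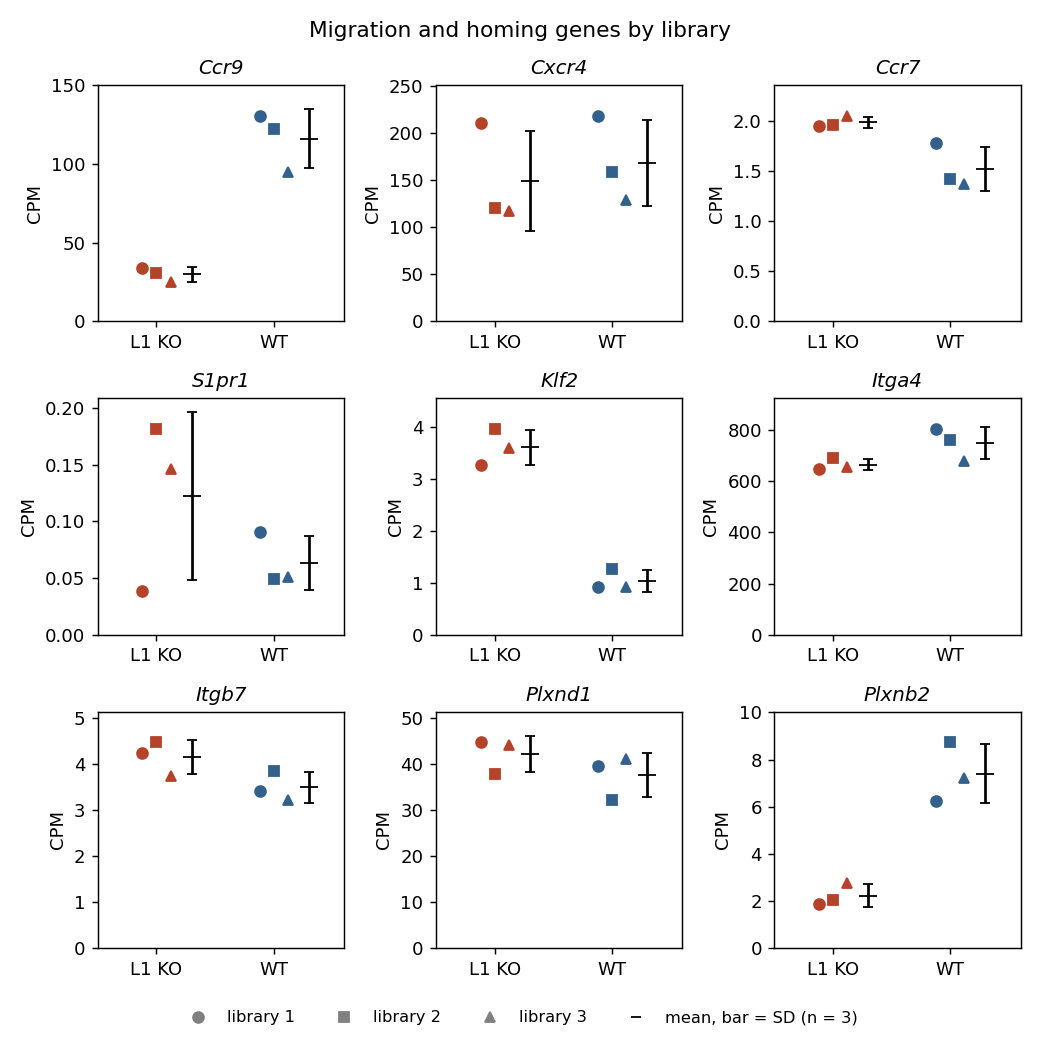
CPM of the 9 genes in each library, L1 KO (red) left of WT (blue), each panel starting at 0; symbols give the library number, and the bar beside each group is the mean with SD (n = 3). The L1 KO libraries lie at 24.9 to 34.2 CPM for Ccr9, below all WT libraries, and at 3.27 to 3.96 CPM for Klf2, above all WT libraries.

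Cxcr4, the receptor for CXCL12, which keeps double negative cells in the cortex and aids beta-selection, was variable within both groups. Its level was 211, 120 and 118 CPM in the L1 KO libraries, against 219, 158 and 129 CPM in the WT libraries. The groups overlapped, and the number 1 library was the highest in each of them. Its log2 fold change was −0.17 ± 0.33, with a 95% interval from −1.02 to 0.67 and an adjusted p of 0.796. Leaving out WT 1 turned the value to 0.06 ± 0.32, with an adjusted p of 0.945.

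Ccr7, which guides mature thymocytes to the medulla and also acts in the entry of progenitors, was read at a low level throughout. It had 50, 54 and 28 reads in the L1 KO libraries, or 1.95, 1.96 and 2.05 CPM, against 39, 29 and 27 reads, or 1.77, 1.41 and 1.37 CPM, in the WT libraries. All L1 KO libraries were above all WT libraries. Groups were likewise apart for 4 of the 8 tested members (Ccr9, Ccr7, Klf2 and Plxnb2) and for 28.4% of all tested genes. The log2 fold change of 0.38 ± 0.22 did not pass, with a 95% interval from −0.12 to 0.87 and an adjusted p of 0.332.

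Receptors and ligands beside these were mostly low. Of 20 other chemokine receptors, 5 passed the filter, and 1 of the 5 was called. Ccr2, a receptor of monocytes and some lymphoid progenitors, had 22, 13 and 13 reads in the L1 KO libraries, against 47, 92 and 44 reads in the WT libraries, and fell by 1.997 ± 0.39 on the log2 scale (adjusted p = 0.0246). It was called in 2 of the 6 fits that leave out a library, with an adjusted p of 0.106 without L1 KO 2. Of 8 dendritic cell markers 5 were tested, and 2 of these fell, Cd74 to 0.495 CPM in L1 KO against 1.52 CPM in WT, and H2-Eb1 to 0.173 CPM in L1 KO against 0.674 CPM in WT. With the block 4 of the 5 were lower, and the median log2 fold change was −1.25. The list summed to 82.7 to 86.3 CPM in L1 KO libraries and 57.4 to 95.6 CPM in WT libraries, largely from Bst2, which is not confined to dendritic cells, and Siglech had 0 reads in L1 KO and 1 read in WT. Of 4 tested myeloid markers, 0 passed in edgeR, DESeq2 or limma-voom, and 0 had an unadjusted p under 0.05. The list of 8 summed to 31.4 to 36.1 CPM in L1 KO libraries and 30.7 to 36.7 CPM in WT libraries. The part of such cells in the Ccr2 result was not tested. Of 16 chemokines, 2 passed the filter, and 0 of these passed in edgeR, DESeq2 or limma-voom or had an unadjusted p under 0.05. Ccl25, the ligand of CCR9, averaged 4.43 ± 0.54 CPM in L1 KO and 4.76 ± 0.82 CPM in WT, and Cxcl12 had 4, 0 and 1 reads in the L1 KO libraries and 1, 0 and 1 reads in the WT libraries.

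Klf2, the zinc finger factor that drives the exit and recirculation programme of mature T cells, rose, at a low level in both groups. Its position is chr8:72319033-72321656, plus strand (ENSMUSG00000055148). It had 84, 109 and 49 reads in the L1 KO libraries, against 20, 26 and 18 reads in the WT libraries. In CPM this was 3.27, 3.96 and 3.58 in L1 KO and 0.909, 1.27 and 0.916 in WT, with no overlap. The means were 3.60 ± 0.34 CPM in L1 KO and 1.03 ± 0.21 CPM in WT (SD, n = 3 each), a ratio of 3.49. The log2 fold change was 1.80 ± 0.23, with a 95% interval from 1.29 to 2.31 and an adjusted p of 0.00408. By library number the log2 differences were 1.75, 1.57 and 1.87.

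S1pr1, the sphingosine 1-phosphate receptor needed to leave the thymus and a KLF2 target, was at the limit of detection. It had 1, 5 and 2 reads in the L1 KO libraries and 2, 1 and 1 reads in the WT libraries, and did not pass the count filter. With 3 reads taken as the floor of a library, 5 of the 6 libraries were at or under it, and a fold between the groups was not detectable at this depth. Among the genes controlled by KLF and FOXO factors, taken from the list drawn up around Klf2, Il7r, the interleukin 7 receptor, averaged 177 ± 20.8 CPM in L1 KO and 138 ± 10.1 CPM in WT. Its log2 fold change of 0.35 ± 0.09 had an adjusted p of 0.0647, and one of 0.00262 with the library number as a block.

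Of the 11 tested genes of that list, 1 rose, 0 fell and 10 had a positive fold change, as did 48.8% of all tested genes, with a median of 0.20. Klf6, a widely expressed relative of KLF2, averaged 38.3 ± 3.3 CPM in L1 KO and 26.8 ± 2.8 CPM in WT, with a log2 fold change of 0.52 ± 0.10 (adjusted p = 0.0230). Of the 6 fits that leave out a library 2 called it, and without WT 2 its adjusted p was 0.113. Klf4, named after its values were seen, varied within the L1 KO group: it had 10, 87 and 22 reads in the L1 KO libraries, against 6, 8 and 12 reads in the WT libraries. Its groups overlapped, and its log2 fold change of 2.03 ± 0.75 had an adjusted p of 0.166, and one of 0.00926 with the block. With the block 3 genes of the list were higher and 1 was lower. The lower gene was Klf3, named after its values were seen and the only tested gene of the list with a negative fold change. It averaged 93.5 ± 4.8 CPM in L1 KO and 121 ± 21.1 CPM in WT, with no overlap. Its log2 fold change of −0.37 ± 0.11 had an adjusted p of 0.0980, and one of 0.00333 with the block. Foxo1, which acts upstream of Klf2 in T cells, averaged 24.4 ± 0.48 CPM in L1 KO and 20.9 ± 3.6 CPM in WT, with an adjusted p of 0.298.

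Markers of mature T cells were read beside Klf2. Of 10 listed, 8 were tested and 1, Cd6, was higher, at 51.4 CPM in L1 KO and 37.6 CPM in WT. The block called 2 of the 8 as higher and 1 as lower. Of the 8, 6 had a positive log2 fold change, while Ccr4 and Gimap6 had a negative one, and the median was 0.24. Cd5 averaged 21.8 CPM in L1 KO and 16.6 CPM in WT, with no overlap (adjusted p = 0.0592). Gimap6 averaged 44.5 CPM in L1 KO and 51.1 CPM in WT, also with no overlap (adjusted p = 0.145). The list summed to 1917 to 1957 CPM in L1 KO libraries and 1729 to 1877 CPM in WT libraries, mostly from Tcf7, which DN3 cells express as well. Cd40lg, a marker of mature CD4 cells, had 0 reads in the L1 KO libraries and 2 in the WT libraries, and Cd4 and Cd8a were at 1.596 and 1.03 CPM in L1 KO and at 1.73 and 0.985 CPM in WT. The part of mature cells in the Klf2 result was not tested. Of 7 tested double positive stage markers, read beside Ccr9, 1 was lower, Cd1d1, at 45.4 CPM in L1 KO and 63.7 CPM in WT, and the list of 8 summed to 914 to 992 CPM in L1 KO libraries and 908 to 1049 CPM in WT libraries. Of 6 tested early progenitor markers 2 were lower: Kit was at 25.8 CPM in L1 KO and 42.3 CPM in WT, and Bcl11a at 5.81 CPM in L1 KO and 12.5 CPM in WT. The other 4 did not pass and 3 of the 6 had a positive fold change, among them Lyl1, at 0.899 CPM in L1 KO and 0.383 CPM in WT with no overlap (adjusted p = 0.129), and Hhex, at 0.707 CPM in L1 KO and 0.511 CPM in WT (adjusted p = 0.425). The progenitor list of 9 summed to 32.1 to 42.4 CPM in L1 KO libraries and 53.7 to 68.8 CPM in WT libraries, mostly from Kit and then Bcl11a, and the part of such cells in the results was not tested. Of the other marker lists, B lineage had 1 lower of 1 tested and epithelial, stromal and endothelial cells had 1 higher and 1 lower of 5, or 1 higher and 2 lower with the block. The B lineage gene was Cd79b, at 24.7 CPM in L1 KO and 31.6 CPM in WT. Ms4a1 and Pax5 had 0 reads in all libraries, and Cd79a had 3 to 14 reads per library. Pdgfrb was higher, at 93.2 CPM in L1 KO and 58.7 CPM in WT, and Epcam lower, at 32.1 CPM in L1 KO and 54.3 CPM in WT. The part of such cells in these results was not tested. Gamma-delta T, natural killer and erythroid markers had 0 called of 6, 2 and 3 in edgeR, with 1 unadjusted p under 0.05 in each list, and DESeq2 called 0, 1 and 1 of them. With the block 1 gamma-delta T marker was higher and 1 lower, 1 natural killer marker was higher and 1 erythroid marker was lower. The 2 tested natural killer markers were Gata3, at 91.6 CPM in L1 KO and 80.8 CPM in WT, and Gzma, at 180 CPM in L1 KO and 138 CPM in WT. Of the untested ones, Ncr1 had 0 reads in all libraries, and Klrb1c, Klrd1 and Eomes had 0 to 2 reads per library. Tbx21, also untested, had 9, 10 and 3 reads in the L1 KO libraries and 6, 8 and 8 reads in the WT libraries.

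**Figure D2:**
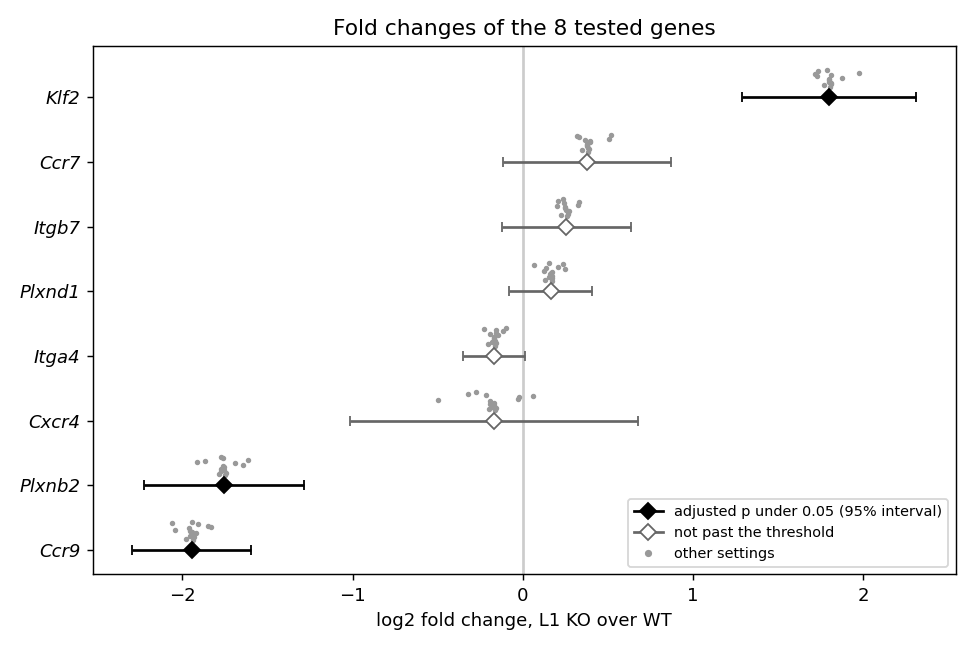
Log2 fold change of L1 KO over WT for the 8 tested genes (diamonds, with 95% intervals), filled where the adjusted p was under 0.05, and the same value under up to 15 other settings (grey points, spread upward for sight). The intervals of Ccr9, Plxnb2 and Klf2 exclude 0, and the Cxcr4 points fall on both sides of it.

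The integrin chains of the set showed no called change. Itga4 encodes the alpha 4 chain, which pairs with beta 1 or beta 7 to bind VCAM-1, fibronectin or MAdCAM-1. It was at 647, 691 and 657 CPM in the L1 KO libraries, against 803, 762 and 680 CPM in the WT libraries. The groups overlapped, as the highest L1 KO library was above the lowest WT library. Its log2 fold change was −0.17 ± 0.08, with a 95% interval from −0.35 to 0.012 and an adjusted p of 0.244. In GENCODE 1124 bases of its exons overlap exons of Cerkl on the opposite strand. Itgb7, the beta 7 chain, had 109, 123 and 51 reads in the L1 KO libraries, or 4.24, 4.46 and 3.73 CPM. The WT libraries had 75, 79 and 63 reads, or 3.41, 3.85 and 3.20 CPM. The groups overlapped, and the log2 fold change of 0.25 ± 0.17 had an adjusted p of 0.392. The other partner of alpha 4, Itgb1, averaged 211 ± 28.8 CPM in L1 KO and 199.9 ± 11.9 CPM in WT, with a log2 fold change of 0.08 ± 0.10. Itgae, the other alpha partner of beta 7, had 272, 187 and 62 reads in the L1 KO libraries and 354, 360 and 266 reads in the WT libraries. It averaged 7.30 ± 3.06 CPM in L1 KO and 15.7 ± 2.0 CPM in WT, with no overlap. The log2 fold change of −1.08 ± 0.27 had an adjusted p of 0.0688, and one of 0.00315 with the block.

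Of the 13 tested integrin chains outside the set, 2 rose, 1 fell and 10 did not pass, with a median log2 fold change of 0.04. Itgb2, the beta 2 chain of LFA-1, was at 50.1, 49.1 and 48.6 CPM in the L1 KO libraries, against 30.4, 23.8 and 31.6 CPM in the WT libraries. The groups were well apart, and its log2 fold change was 0.78 ± 0.10 with an adjusted p of 0.00545. Its alpha partner Itgal was level, at 353 ± 14.8 CPM in L1 KO and 353 ± 14.6 CPM in WT. Itgb4, which forms a laminin receptor with alpha 6, fell to 77.7 ± 4.8 CPM in L1 KO, against 112 ± 6.2 CPM in WT, with −0.53 ± 0.07 and an adjusted p of 0.00535. Itga9, which pairs with beta 1, rose to 9.51 ± 2.63 CPM in L1 KO, against 4.52 ± 0.51 CPM in WT, with 1.06 ± 0.21 and an adjusted p of 0.0261. It was called in 1 of the 6 fits that leave out a library, and its adjusted p without WT 2 was 0.133. Of 10 tested genes of integrin activation 0 passed in edgeR, DESeq2 or limma-voom, 1 had an unadjusted p under 0.05, and the median was 0.03. With the block 2 integrin chains were higher and 4 lower, and 1 gene of integrin activation was higher.

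Plxnb2, a receptor for class 4 semaphorins, fell. Its position is chr15:89155549-89180788, minus strand (ENSMUSG00000036606). It had 48, 56 and 38 reads in the L1 KO libraries, against 137, 179 and 142 reads in the WT libraries. In CPM this was 1.87, 2.03 and 2.78 in L1 KO and 6.23, 8.73 and 7.22 in WT, with no overlap between the groups. The means were 2.23 ± 0.49 CPM in L1 KO and 7.39 ± 1.26 CPM in WT (SD, n = 3 each), which left 30.1% of the WT mean. The log2 fold change was −1.76 ± 0.21, with a 95% interval from −2.23 to −1.29 and an adjusted p of 0.00301. By library number the log2 differences were −1.69, −2.05 and −1.35.

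Plxnd1, the receptor for SEMA3E that guides double positive cells towards the medulla in mice, was at 44.8, 37.8 and 44.1 CPM in the L1 KO libraries. The WT libraries had 39.7, 32.2 and 41.1 CPM. The groups overlapped, and in each of them the number 2 library was the lowest. Its log2 fold change of 0.16 ± 0.11 had a 95% interval from −0.080 to 0.41 and an adjusted p of 0.393. Sema3e, which encodes its ligand, had 0 reads in all 6 libraries, which allows up to 3 reads per library.

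Of 6 other tested plexin and neuropilin genes, Nrp1, a co-receptor for class 3 semaphorins, rose. It was at 76.3, 85.4 and 92.5 CPM in the L1 KO libraries, against 50.4, 51.3 and 58.6 CPM in the WT libraries, with a log2 fold change of 0.66 ± 0.09 (adjusted p = 0.00629). It was called in 5 of the 6 fits that leave out a library, and its adjusted p without WT 2 was 0.0507. Plxnb1, named after its values were seen as a family relative of Plxnb2, averaged 3.34 ± 0.68 CPM in L1 KO and 6.07 ± 1.21 CPM in WT. Its log2 fold change of −0.85 ± 0.21 had an adjusted p of 0.0545, and one of 0.00395 with the block. Of 9 tested semaphorins 1 fell: Sema4c, which encodes a ligand of plexin-B2, had 36, 53 and 26 reads in the L1 KO libraries, against 69, 71 and 74 reads in the WT libraries. Its log2 fold change was −0.99 ± 0.21, with an adjusted p of 0.0336. It was called in 1 of the 6 fits that leave out a library, with 0.130 as the adjusted p without WT 2. The median of the semaphorins was −0.52, and 4 were lower with the block.

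**Figure D3:**
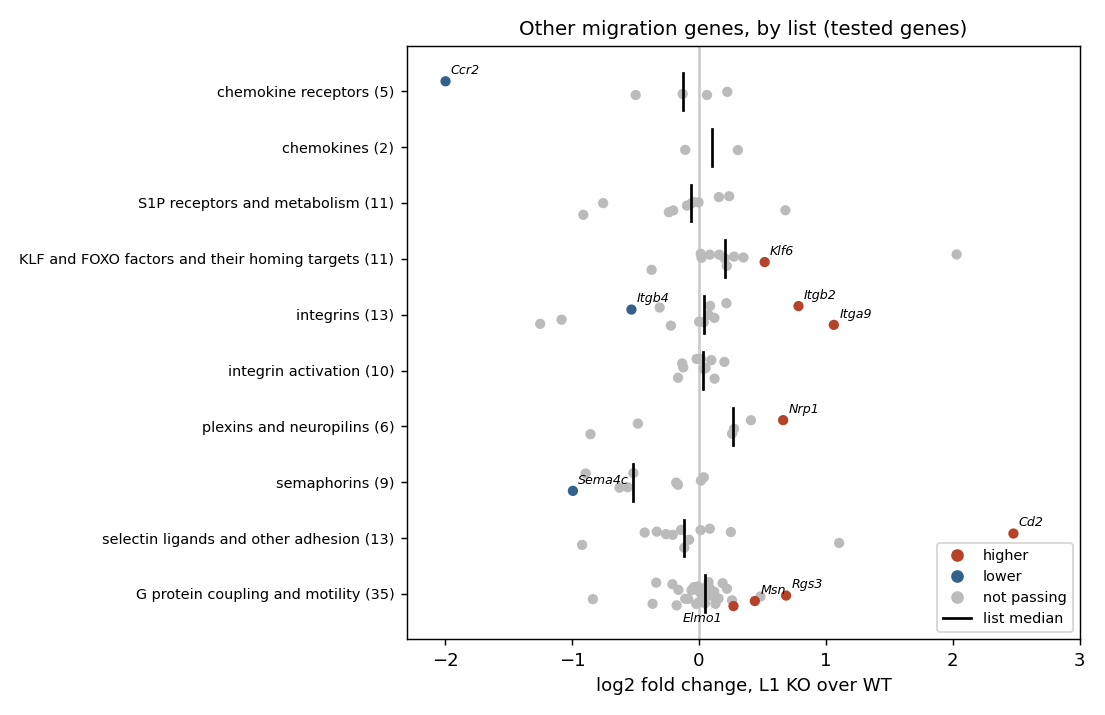
Log2 fold change of L1 KO over WT for 115 tested genes of 10 lists around migration and homing, without the 9 genes of the set; the number of tested genes stands in brackets, the short line is the list median, and genes past the threshold are coloured and named. Called genes number 8 higher and 3 lower, and the median of all 115 is 0.015.

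Cd2, an adhesion receptor for CD48, was at 30.4, 30.6 and 23.2 CPM in the L1 KO libraries, against 7.05, 3.41 and 4.63 CPM in the WT libraries. It had the largest rise among the listed genes that passed, 2.48 ± 0.25 with an adjusted p of 0.00322, and was called in all 6 fits that leave out a library. It was the 1 called gene of 13 tested for selectin ligands and other adhesion. The median of that list was −0.116, and 5 of the 13 had a positive fold change. With the block 2 of them were higher and 2 lower. Selplg, the selectin ligand of thymus settling, averaged 283 ± 8.2 CPM in L1 KO and 326 ± 15.2 CPM in WT, with an adjusted p of 0.0996, and one of 0.0261 with the block. Of 35 tested genes of G protein coupling and motility, 3 rose and 0 fell. With the block 6 were higher and 4 lower. In edgeR 10 had an unadjusted p under 0.05, DESeq2 called 5 and limma-voom 3. Of the 35, 22 had a positive fold change, and the median was 0.047. Msn, which encodes the membrane linker moesin, averaged 323 ± 19.4 CPM in L1 KO and 238 ± 16.5 CPM in WT, a log2 fold change of 0.44 ± 0.08. Rgs3, which shortens G protein signals, averaged 20.1 ± 0.65 CPM in L1 KO and 12.5 ± 1.9 CPM in WT, a change of 0.69 ± 0.12. Elmo1, a partner of DOCK proteins in Rac activation, averaged 137 ± 6.3 CPM in L1 KO and 113 ± 1.4 CPM in WT, a change of 0.27 ± 0.06. Their adjusted p were 0.0172 for Msn, 0.0183 for Rgs3 and 0.0328 for Elmo1. These calls held in 3 (Msn), 3 (Rgs3) and 1 (Elmo1) of the 6 fits that leave out a library, and the highest adjusted p were 0.0898 for Msn without WT 2, 0.0823 for Rgs3 without L1 KO 2 and 0.182 for Elmo1 without L1 KO 2. Gnai2, the G protein alpha subunit through which chemokine receptors signal, averaged 362 ± 3.7 CPM in L1 KO and 368 ± 17.2 CPM in WT. Of 11 tested genes of sphingosine 1-phosphate receptors and metabolism 0 passed in edgeR, DESeq2 or limma-voom and 3 had an unadjusted p under 0.05. Their median was −0.060, and 1 was higher and 1 lower with the block.

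Over all 10 lists, 177 genes were in the table and 115 were tested. Of these, 8 were higher and 3 lower, or 9.57% against 4.57% of all tested genes, and their median log2 fold change was 0.015. With the library number as a block, 16 were higher and 18 lower, or 29.6%, against 20.3% of all tested genes in that fit. In fits that left out a library, 3 were called without WT 2, 4 without L1 KO 2, 4 without L1 KO 3, 6 without WT 3 and 24 without L1 KO 1. Leaving out both number 1 libraries gave 35 calls, which included all 11.

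Per kilobase of merged exons (RPKM), the 9 genes spanned a wide range. In L1 KO libraries the order was Cxcr4 (82.7 ± 29.5 RPKM), Itga4 (47.6 ± 1.6), Plxnd1 (5.79 ± 0.53), Ccr9 (2.92 ± 0.46), Klf2 (1.95 ± 0.19), Itgb7 (1.496 ± 0.136), Ccr7 (1.003 ± 0.028), Plxnb2 (0.288 ± 0.063) and S1pr1 (0.0401 ± 0.0244), and no 2 neighbours overlapped over the 3 libraries. In WT libraries it was Cxcr4 (93.4 ± 25.2 RPKM), Itga4 (53.5 ± 4.5), Ccr9 (11.3 ± 1.8), Plxnd1 (5.16 ± 0.65), Itgb7 (1.26 ± 0.12), Plxnb2 (0.958 ± 0.163), Ccr7 (0.769 ± 0.111), Klf2 (0.558 ± 0.111) and S1pr1 (0.0209 ± 0.0078), where only Plxnb2 and Ccr7 overlapped. Ccr9 thus stood below Plxnd1 in L1 KO cells and above it in WT cells, and Klf2 stood above Itgb7, Ccr7 and Plxnb2 in L1 KO cells and below them in WT cells. The exon length of Ccr9 includes a transcript with a retained intron. With the longest principal transcript instead, Ccr9 was at 5.76 ± 0.91 RPKM in L1 KO and 22.3 ± 3.6 RPKM in WT. On that length Ccr9 overlapped with Plxnd1 in L1 KO libraries, and Cxcr4 overlapped with Itga4 in both groups and Itgb7 with Plxnb2 in WT libraries.

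**Figure D4:**
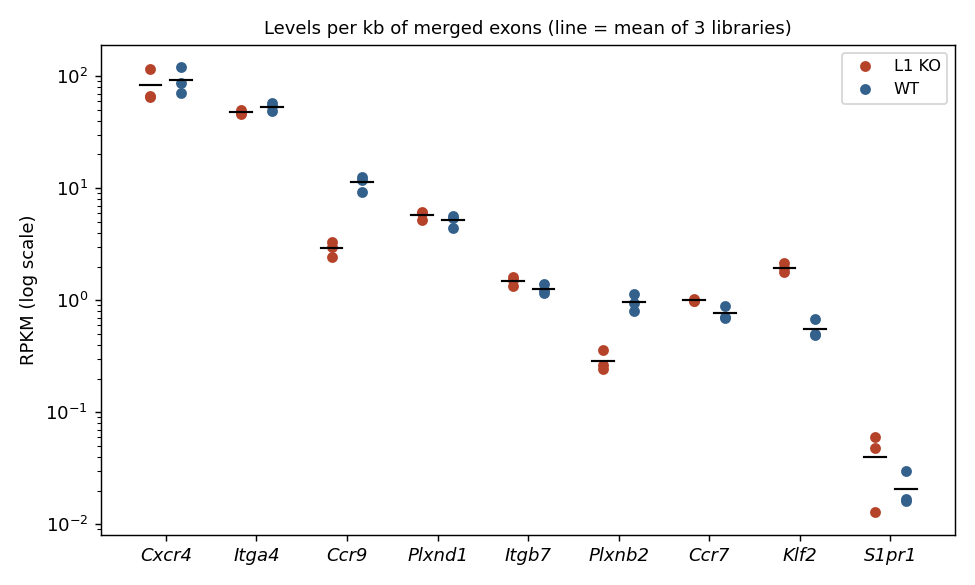
RPKM per library on a log axis for the 9 genes, ordered by their WT mean, L1 KO (red) left of WT (blue), with lines at the means of 3 libraries. Cxcr4 and Itga4 lie above 40 RPKM in all libraries and S1pr1 lies below 0.06 RPKM.

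The genes whose pattern over the 6 libraries was nearest to that of a called member were picked among 10439 genes outside the lists with an average of at least 5 CPM, by the root mean square difference of centred log2 CPM. For Ccr9 they were Grm4, a glutamate receptor gene (0.23), Kcnh3, a potassium channel gene (0.31), and Adam11 (0.33). For Plxnb2 they were Adam11 (0.15), Grm4 (0.19) and 9830001H06Rik (0.25). For Klf2 they were Ptgfrn (0.21), Hmcn2 (0.23) and AC126552.1 (0.23). Grm4 averaged 4.81 ± 0.24 CPM in L1 KO and 17.6 ± 2.7 CPM in WT, and Hmcn2 9.18 ± 1.16 CPM in L1 KO and 2.33 ± 0.36 CPM in WT. These genes were chosen for their likeness, so their differences between the groups are a description.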

How the data were processed

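The authors deposited raw counts of reads for 34573 gene symbols in 6 libraries. Per the submitters' processing notes, TopHat2, HTSeq and GRCm38 were used; their versions, the annotation and the strandedness of counting were not given in the sources used here. Ctrl columns were taken as the WT samples of the same number, and 5 summary rows were left out. By library, 37.7% to 39.7% of reads were counted to genes, 50.4% to 51.9% to no feature, 9.14% to 10.2% were not unique and 0.498% to 0.52% ambiguous. Without a stated strand setting, reads of overlapping or antisense genes cannot be told apart.

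These counts went into edgeR 4.0.16 under R 4.3.3: filterByExpr (minimum count 10, total 15), TMM scaling, estimateDisp and robust glmQLFit with the two-sided quasi-likelihood F test, at an adjusted p of 0.05. The 95% intervals and SE follow from the F statistic. DESeq2 1.42.0 and limma 3.58.1 (voom), other scalings and filters, robust fitting off, a replicate block and leaving out libraries were alternatives. The step was tested on simulated data. These had the same dispersion for all genes and no shared effect of the library number, so they do not show how the step fares with the spread of these libraries. The members and lists were chosen with earlier results of these data known. Of 282 list entries, 9 were matched through RefSeq synonyms and 2 were not matched. The values of 1 listed gene are not reported here. Genes named are the members, Rpl22l1, the called genes of each list (at most 4, smallest p) and the 3 nearest patterns; others are said to be named after their values were seen or serve as markers, ligands, partners or homing targets of members.

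Titles number both groups 1 to 3. Deviations from group means correlated at 0.58, 0.17 and 0.34 between libraries with the same number, all above the 0.1 set for pairing. The numbers thus count as pairs by that rule. The values do not settle the pairing beyond number 1, as L1 KO 2 correlated better with WT 3 (0.22) and WT 2 better with L1 KO 3 (0.29). Deviations are taken from the mean of 3 libraries, so a shared departure of number 1 alone can make the others correlate. The labels name no litter or day. The fit on group alone stays the main one. Nothing says that libraries came from separate mice, and the p-values may then reflect technical spread only. Intervals cover counting error and the spread between libraries; no molecular identifiers are named.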

Additional observations from a re-analysis of the deposited data

How the results depend on the processing

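All 3 called members kept their direction and their call in every alternative that tested them. Ccr9 ranged from −2.06 to −1.83, Plxnb2 from −1.91 to −1.62 and Klf2 from 1.72 to 1.98; the filter of 5 CPM removed Klf2, Ccr7 and Itgb7, which left 2 called members. Members called numbered 3 in each fit that left out a library. The other 5 tested members were called in none of the alternatives that tested them, and of these Cxcr4 alone changed sign, to 0.0604 without WT 1, within −0.50 to 0.0604 when 1 library was left out; the cause was not tested. Rpl22l1 ranged from −2.50 to −2.25 when a library was left out. Of all genes, with no count filter 1037 were called, 1222 with DESeq2, 2785 with the replicate block, 2881 without both number 1 libraries. With 1 library left out the count ran from 109 to 2177: 109 without WT 2, 155 without L1 KO 2, 194 without L1 KO 3, 274 without WT 3, 415 without WT 1 and 2177 without L1 KO 1. Of the wider lists, 19 genes were called with DESeq2, 34 with the replicate block and 35 without both number 1 libraries, each including all 11 of the fit on group alone, and 3 to 24 when 1 library was left out; fewer libraries enter those fits, and the cause of the higher counts was not tested. The replicate block changed no call among the members. Levels per kb of Ccr9, Itga4 and Plxnb2 in WT moved to 22.3, 76.6 and 1.14 RPKM with the longest principal transcript, an alternative chosen after seeing the data. Depth limits S1pr1 most, with 1 to 5 reads per library.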
